A study of Homo sapiens with 12 samples.

Results

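The miR-28 hairpin yields a pair of mature miRNAs, miR-28-5p and miR-28-3p, and both were measured by small RNA sequencing in differentiated Mono Mac 6 (MM6) cells, a human monocytic leukemia cell line. They were chosen by name from the mature miRNA entries, and the family was picked with the levels and genotype ratios of these same means known, so all values below are descriptions. They are 2 of the 314 mature miRNA names in the 2 tables. The related miR-151a-5p, miR-151a-3p, miR-151b and miR-708 were not analysed here. Wild-type and 5-LOΔ MM6 cells, unstimulated or given LPS, made up 4 groups of 3 libraries, 12 in all. The 5-LOΔ cells carry the genotype ALOX-5 -/- and are single-cell clones made with CRISPR/Cas9 and selected with puromycin, which lack 5-lipoxygenase (5-LO), the enzyme that starts leukotriene synthesis. Which clone a library came from is not labelled, and small RNA libraries do not hold the ALOX5 mRNA, so the genotype could not be checked here. All cells, wild-type ones included, were kept for 72 h with calcitriol at 50 nM and TGF-β at 1 ng/mL, which drives them toward a mature monocytic state. The stimulated groups were then exposed for 6 h to LPS at 1 µg/mL, a component of the outer membrane of bacteria.

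A miRNA hairpin is cut by Drosha and then by Dicer into a duplex, and each strand of the duplex can be loaded onto an Argonaute protein. The arms carry different seeds, the bases near the 5′ end that pair with target mRNAs, so miR-28-5p and miR-28-3p recognize different targets. Which strand is kept differs between hairpins. miR-28 arose from a LINE-2 repeat and is known in blood cells for its loss in B-cell lymphoma.

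The mature sequence of miR-28-3p is given because this arm held most of the miR-28 signal, and that of miR-708-3p for comparison with a related hairpin (RefSeq, GRCh38.p14, seed at bases 2 to 8 in capitals).
miR-28-3p: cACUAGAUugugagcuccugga
miR-708-3p: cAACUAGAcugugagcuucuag
The seeds differ, but share a run of 6 bases that starts at base 2 in miR-28-3p and at base 3 in miR-708-3p, and the longest run common to both miRNAs has 8 bases. None of the other listed miRNAs with a RefSeq sequence carried the seed of miR-28-3p (262 of 314 names were matched). The hairpin gene MIR28 spans 188406569 to 188406654 of chromosome 3, plus strand (GRCh37, the assembly behind the hg19 build of the tables). miR-28-3p covers bases 54 to 75 of its 86 bases, from 188406622 to 188406643. The hairpin sits inside LPP, a protein-coding gene for a focal adhesion protein on the same strand (187871072 to 188608460). Of the 23 annotated LPP transcripts, 8 span the hairpin, and in all 8 it is intronic.

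The deposited tables hold 1 mean of normalized counts per genotype, so levels are the authors' means, without an SD, and no test between groups was run. For means of at most 10, the whole reads of the 3 libraries could be recovered, because each library contributes steps of a fixed size. This held for all 378 wild-type and 439 knockout values of that size without LPS, and for all 361 and 352 with LPS. The deepest library of a group was between 1.41 and 2.58 times as deep as the shallowest. The recovered libraries carry no replicate number and are called here by their depth. Intervals given below are 95% intervals of the sampling of reads only, and they leave out the spread between libraries. The tables without and with LPS were normalized separately, so levels across them are set side by side, while ratios between the arms of 1 group need no scaling. All 6 miRNAs looked up as myeloid (miR-223-3p, both miR-142 arms, miR-21-5p, miR-146a-5p and miR-155-5p) were listed. Their means ran from 58.0 (miR-223-3p) to 3885 (miR-21-5p) normalized counts, and being listed does not by itself establish the cell type. Of 14 miRNAs typical of other cell types, 2 were listed. miR-9-5p stood at 16.2 (wild type) and 42.3 (5-LOΔ) normalized counts without LPS, and at 19.7 and 21.2 with LPS. miR-200c-3p stood at 1.19 and 1.00 in wild-type cells without and with LPS, and at 0 in 5-LOΔ cells.

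miR-28-3p was the major arm in every group and stayed close to 50 normalized counts. Without LPS its mean was 52.2 in wild-type and 56.2 in 5-LOΔ cells. With LPS they were 41.9 in wild-type and 44.2 in 5-LOΔ cells. The counting intervals of the 4 means overlapped, the lowest running from 35.2 to 49.9 (wild type with LPS) and the highest from 48.1 to 65.7 (5-LOΔ without LPS). By rank it stood at place 70 of the 285 mature miRNAs in wild-type cells and at place 71 in 5-LOΔ cells without LPS, and at place 74 of 262 in both genotypes with LPS. Single libraries cannot be given for miR-28-3p, since its means could be written as whole reads in 4 to 7 ways, with between 111 and 214 reads over the 3 libraries of a group.

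miR-28-5p was the minor arm and was read only a few times in each library. Without LPS the wild-type libraries held 15, 10 and 7 reads from the deepest to the shallowest, or 12.0, 9.85 and 7.92 normalized counts. The 5-LOΔ libraries held 19, 8 and 2 reads, or 14.2, 8.47 and 2.76 normalized counts. The genotypes overlapped, since the deepest 5-LOΔ library was above and the shallowest below all 3 wild-type libraries. With LPS the wild-type libraries held 9, 5 and 3 reads, or 5.23, 4.66 and 4.51 normalized counts. The 5-LOΔ libraries with LPS held 4, 0 and 3 reads, or 3.08, 0 and 3.69 normalized counts. Here every 5-LOΔ library was below every wild-type library, a pattern seen in 2.47% of the 81 mature miRNAs with means above 0 and at most 10 in both genotypes, which is 2 miRNAs with miR-28-5p among them. Without LPS the same pattern was seen in 4.44% of 90 such miRNAs, and miR-28-5p was not one of them. The opposite pattern, every 5-LOΔ library above every wild-type library, was equally frequent, with 2.47% of the 81 with LPS and 4.44% of the 90 without.

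**Figure D1:**
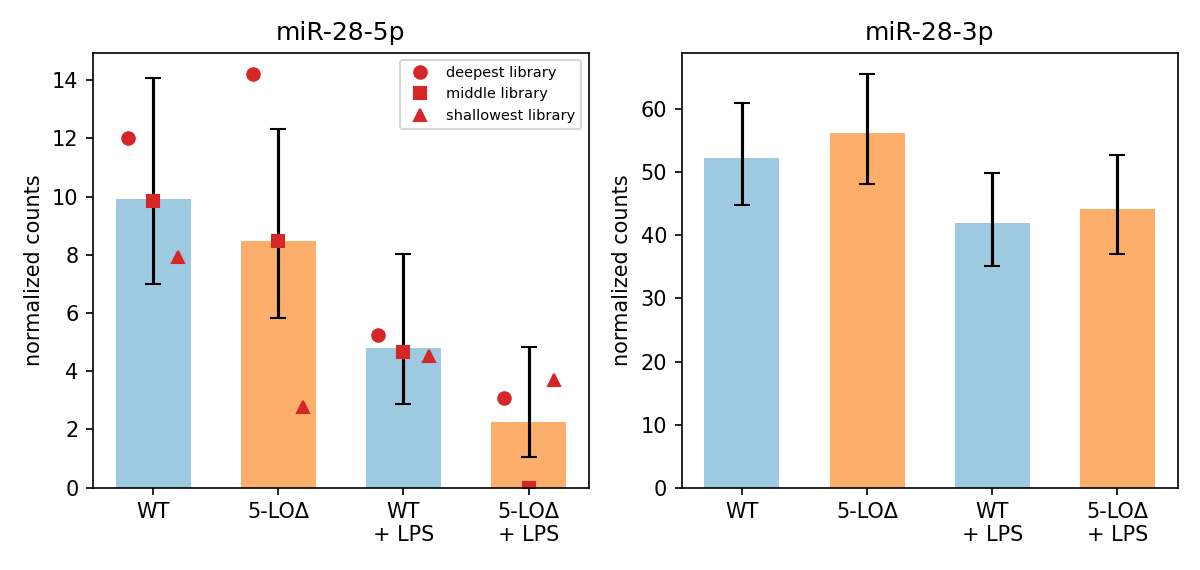
Levels of miR-28-5p (left) and miR-28-3p (right) in normalized counts for wild-type (WT) and 5-LOΔ cells without and with LPS. Bars are the authors' means of 3 libraries, error bars are 95% counting intervals, and red symbols are the recovered libraries by depth, given for miR-28-5p only; the highest bar is 9.93 for miR-28-5p in wild-type and 56.2 for miR-28-3p in 5-LOΔ cells.

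The recovered libraries of miR-28-5p, which held from 0 to 19 reads each, lay further apart in 5-LOΔ than in wild-type cells. The highest was 1.52 times the lowest in wild-type cells without LPS and 1.16 times with LPS, and 5.15 times in 5-LOΔ cells without LPS. In 5-LOΔ cells with LPS the range ran from 0 to 3.69 normalized counts, which gives no fold. In 5-LOΔ cells without LPS the deepest, middle and shallowest libraries stood at 168%, 99.8% and 32.5% of the miR-28-5p mean. The sum of all 136 mature miRNAs with a mean above 0 and at most 10 stood at 133%, 103% and 63.8% of its mean in the same libraries. In 5-LOΔ cells with LPS the order differed, with miR-28-5p at 136%, 0% and 164% of its mean from the deepest to the shallowest library and the sum of low miRNAs at 125%, 84.7% and 89.8%. The parts of depth and of the sampling of few reads in the miR-28-5p spread were not tested.

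As means, miR-28-5p stood at 9.93 (wild type) and 8.48 (5-LOΔ) normalized counts without LPS, and at 4.80 and 2.26 with LPS. Its share of the mature miRNA sum decreased in that order of groups, with 96.9, 74.8, 51.5 and 20.5 ppm of that sum. The highest share was 4.74 times the lowest, and the corresponding factor was 1.27 for miR-28-3p, whose shares were 510, 496, 450 and 401 ppm. Neighbours in the order of miR-28-5p shares overlapped in their counting intervals, while the intervals of both unstimulated groups, 68.3 to 138 in wild-type and 51.5 to 109 in 5-LOΔ cells, lay above that of 5-LOΔ cells with LPS (9.55 to 43.8). In 5-LOΔ cells single libraries moved these levels, and the mean of 8.48 normalized counts without LPS was 5.61 without its deepest library, and the mean of 2.26 with LPS was 3.38 without the library that held no read. In these bulk samples fewer cells with a miRNA and less of it per cell cannot be told apart. Together the arms held 0.0607% (wild type) and 0.0571% (5-LOΔ) of that sum without LPS, and 0.0501% and 0.0421% with LPS.

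The knockout to wild-type ratio asks whether loss of 5-LO goes with another level of miR-28. For miR-28-3p the log2 ratio was 0.11 without LPS (counting interval -0.21 to 0.42) and 0.08 with LPS (-0.28 to 0.44). Both are near 0, and the sign depends on the scaling. Set to equal sums of mature miRNAs, the log2 ratios were -0.04 and -0.16. The median over the mature miRNAs with a mean of at least 10 in both genotypes was 0.17 (106 miRNAs) without and 0.15 (103 miRNAs) with LPS, so miR-28-3p lay slightly below the median in each table. miR-28-3p did not reach a 1.5-fold difference in either direction. In the table without LPS, 21.7% of the 106 miRNAs were at least 1.5-fold higher and 3.77% at least 1.5-fold lower in 5-LOΔ cells, and with LPS 17.5% were higher and 3.88% lower.

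For miR-28-5p the log2 ratio of 5-LOΔ to wild-type cells was -0.23 without LPS (-0.96 to 0.51) and -1.09 with LPS (-2.41 to 0.23). Both counting intervals hold 0. Without the shallowest 5-LOΔ library the value without LPS changed sign to 0.19, and without the deepest 5-LOΔ library it was -0.82. With LPS it remained below 0 with any of the 6 libraries left out. It was -0.50 without the middle 5-LOΔ library, which held no read of miR-28-5p, and -1.64 without the shallowest. Adding a pseudocount of 10 to both means brought it to -0.27, and equal sums of mature miRNAs to -1.33. A difference of 1.5-fold or more downward with LPS was found in 13.2% of the 159 mature miRNAs with a mean of at least 1 in both genotypes, and of 2-fold or more, which miR-28-5p passed with 2.13-fold, in 4.4%. Among the 37 other mature miRNAs within 2-fold of its wild-type mean with LPS, 9 were as low or lower in 5-LOΔ cells, 4 of them listed at 0. Subtracting the log2 ratio without LPS from that with LPS gave -0.86 for miR-28-5p (-2.38 to 0.65) and -0.03 for miR-28-3p (-0.50 to 0.45), and both counting intervals hold 0.

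**Figure D2:**
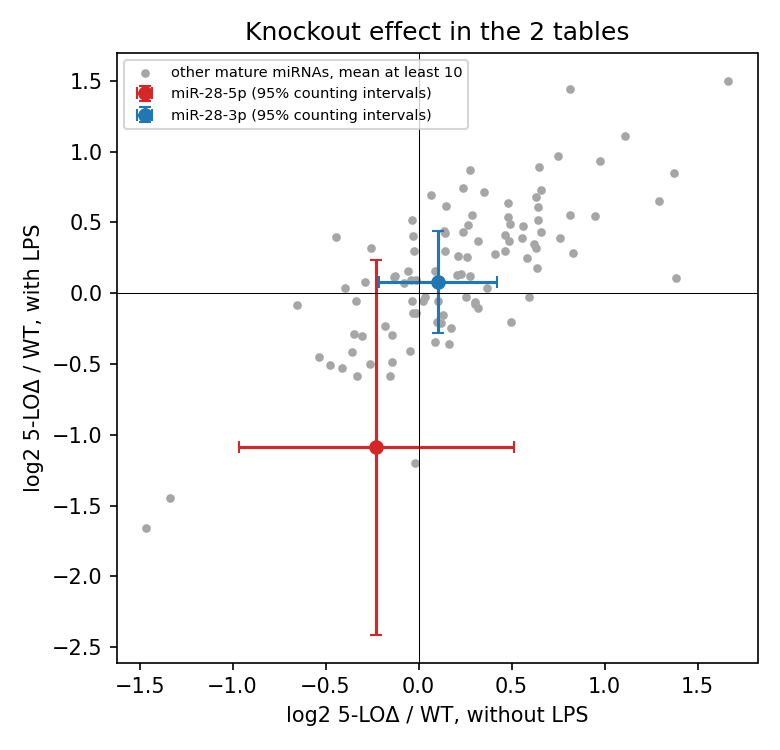
Log2 ratio of 5-LOΔ to wild-type means without LPS (x axis) and with LPS (y axis) for miR-28-5p (red), miR-28-3p (blue) and 99 other mature miRNAs with a mean of at least 10 in all 4 groups (grey). Crosses are 95% counting intervals; miR-28-3p lies at 0.11 and 0.08, and miR-28-5p at -0.23 and -1.09, where 3 of the 99 other miRNAs were as low with LPS. miR-28-5p itself lies below the minimum of 10, so the 99 rest on more reads than it does. Among 37 other miRNAs within 2-fold of its wild-type mean with LPS, 9 were as low or lower.

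The arms can be compared within each group without any scaling. miR-28-3p exceeded miR-28-5p by a factor of 5.26 in wild-type cells (counting interval 3.59 to 7.72). In 5-LOΔ cells the factor was 6.63 (4.42 to 9.92), and 10.0 with the deepest library left out of the miR-28-5p mean. With LPS it was 8.73 in wild-type (5.08 to 15.0) and 19.6 in 5-LOΔ cells (8.98 to 42.8). miR-28-5p thus made up 16.0%, 13.1%, 10.3% and 4.85% of both arms in the same order of groups. The 3p arm dominated in every group, and its lead was largest in 5-LOΔ cells with LPS, where miR-28-5p rested on 7 reads. That factor ran from 13.1 without the library that held no read of miR-28-5p to 28.8 without the shallowest one.

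On the log2 scale the ratio of 5p to 3p was -2.40, -2.73, -3.13 and -4.29 in these groups. Of the 6 pairs of groups, 2 differed by more than the counting error. The ratio in 5-LOΔ cells with LPS was lower by a log2 difference of -1.90 (-3.15 to -0.64) than in wild-type cells without LPS, and by -1.57 (-2.83 to -0.30) than in 5-LOΔ cells without LPS. The former interval stayed below 0 with any of the 6 libraries left out of the miR-28-5p mean, with values from -2.45 to -1.31. The latter held 0 without the deepest 5-LOΔ library of the unstimulated cells (-0.97, from -2.43 to 0.49) and without the middle 5-LOΔ library with LPS (-0.98, from -2.25 to 0.29). The effect of the knockout on the ratio was -0.33 without LPS (-1.13 to 0.47) and -1.17 with LPS (-2.54 to 0.20), and the interval with LPS fell below 0 only without the shallowest 5-LOΔ library (-1.72, from -3.36 to -0.09). These changes differed by -0.84 (-2.42 to 0.75), which is within the counting error. In wild-type cells the ratio was lower with than without LPS by -0.73 (-1.69 to 0.23), and this interval held 0 too.

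Other hairpins give a scale for these ratios. Among 39 other hairpins with both arms above 0 in all 4 groups, the 5p arm was higher in all groups for 22, the 3p arm for 13, and 4 were mixed. The ratio of miR-28 spanned 1.90 log2 units over the 4 groups, and 10 of the 39 spanned as much or more, with a median of 1.09. Many of these rest on few reads, as miR-28 does. miR-28 does not reach the planned minimum of 10 for both arms, which 15 other hairpins did, with spans from 0.00198 to 1.65. For the change of the ratio with the knockout in the LPS table, 10 of the 39 changed by at least as much as miR-28 in either direction. Both tallies depend on the reads behind the hairpins. With both arms at 2 or more, a limit chosen after the values were seen, 1 of 24 other hairpins spanned as much and 1 changed as much with LPS, and with both arms at 10 or more 0 of 15 did either. miR-28 had the lowest arm mean of the hairpins kept at 2 and was not among those kept at 10, so these sets hold no hairpins with as few reads and nothing is read from them about miR-28.

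**Figure D3:**
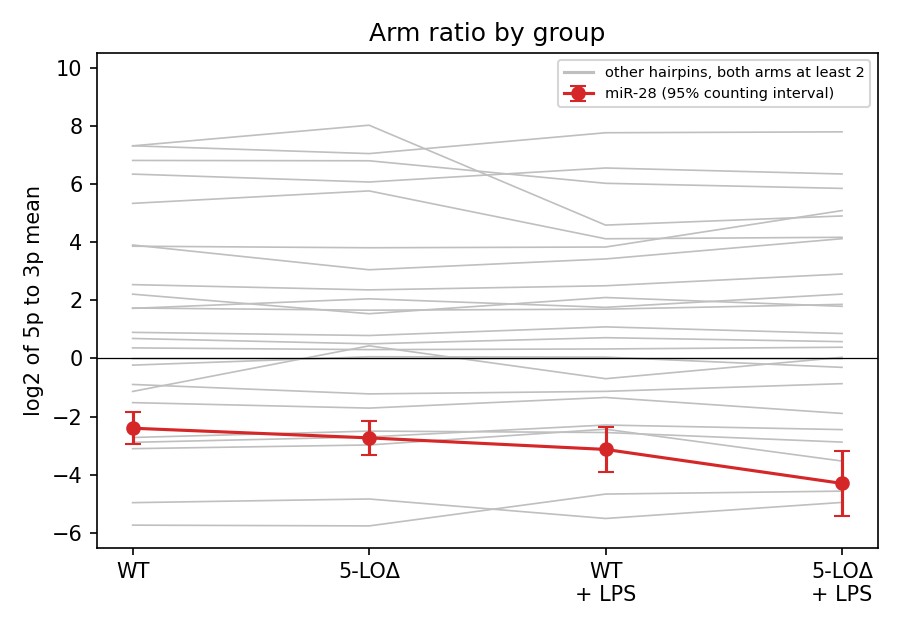
Log2 ratio of the 5p to the 3p mean in the 4 groups for miR-28 (red, with 95% counting intervals) and for 24 other hairpins with both arms at 2 or more in all groups (grey lines join the values of a hairpin), a limit chosen after the values were seen, with miR-28 the hairpin of the lowest arm mean (2.26). The ratio of miR-28 was -2.40 in wild-type cells and -4.29 in 5-LOΔ cells with LPS.

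The precursor entry mir-28 counted hardly any reads beyond its mature arms. Without LPS its mean was 62.4 (wild type) and 64.9 (5-LOΔ), and with LPS 46.7 and 47.2. The excess over the sum of the arms equalled 1 read in wild-type cells and 1 in 5-LOΔ cells, each in the deepest library. With LPS it was 0 reads in wild-type and 2 in 5-LOΔ cells. These reads were 0.427%, 0.384% and 1.39% of the precursor mean where present. The entry is thus nearly the sum of the arms, most of it miR-28-3p, and is no separate measure of the precursor.

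The miRNAs with the pattern most like each arm were found by the distance in the knockout log2 ratios without and with LPS, among 99 other mature miRNAs with a mean of at least 10 in all 4 groups. For miR-28-3p these were miR-27a-3p (distance 0.08), miR-21-3p (0.11) and miR-181b-5p (0.12). For miR-28-5p the nearest was miR-454-3p (0.24), with 25.0 and 24.7 normalized counts without LPS and 25.1 and 10.9 with LPS in wild-type and 5-LOΔ cells. miR-103a-3p (0.51) and miR-107 (0.52) followed. For both arms the counting intervals of the ratios reach further than these distances, so the order of the nearest miRNAs is not settled. For miR-28-5p they ran from -0.96 to 0.51 without LPS and from -2.41 to 0.23 with LPS. Its ratio with LPS was -0.50 instead of -1.09 without the 5-LOΔ library that held no read. In the order of wild-type levels without LPS, miR-28-3p stood between miR-107 (52.3 normalized counts) and miR-3651 (51.5), and miR-28-5p between miR-15a-5p (10.4) and miR-199b-3p (9.83). None of these 4 differed from its neighbour by more than the counting error, with log2 differences from -0.02 to 0.07. That follows from their choice as the nearest in this same level. Other miRNAs were looked up from a list planned as LINE-2 derived (miR-95, miR-325, miR-326 and miR-345), an origin that was not checked here. Only miR-345 was analysed. The mean of miR-345-5p was 32.5 (wild type) and 24.7 (5-LOΔ) without LPS, and 21.5 and 22.0 with LPS. miR-345-3p had 0.534 and 1.32 normalized counts in wild-type cells without and with LPS and was listed at 0 in 5-LOΔ cells in both tables.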

How the data were processed

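Small RNA libraries (Lexogen kit, size-selected for precursor and mature miRNA) were adapter-trimmed by the authors, annotated against hg19 and normalized with omiRas. For the aligner, its mismatch limit and the scaling method, settings are not given in the sources used. The deposited signal columns are means of normalized counts over the 3 libraries of a genotype, with 6 significant digits. The log2 fold change, p-value and FDR columns of the authors' comparison were not used. The members, lists and comparisons were chosen with earlier results of these data known.

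Size factors were recovered by finding the 3 steps whose whole multiples give every mean of at most 10, and counting variances were computed from them. For larger means the variance assumes equal levels in the libraries. The recovery and the intervals were tested on simulated data in which libraries differed by depth and by the sampling of reads only. The intervals assume the same, so the simulation could not show how they hold with a spread between libraries. No pseudocount was added. The rule for named miRNAs covered the members, their precursor, the 3 miRNAs nearest to each in knockout effect, the neighbours in level and the LINE-2 list. The ratio between miR-28 and miR-151a that had been planned was not analysed here. Groups came from the sample titles. Python 3.11.15, numpy 2.4.6, pandas 2.3.3 and matplotlib 3.10.9 were used.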

Additional observations from a re-analysis of the deposited data

How the results depend on the processing

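Of 90 alternative values, 65 remained within the counting interval of the reported value, or within 1.5 times for counts. The knockout effect of miR-28-3p without LPS was -0.22 with equal sums of mature miRNAs without the miR-3607 entries. A pseudocount of 10 moved the log2 ratio of 5p to 3p to -1.64 (wild type), -1.84 (5-LOΔ), -1.81 (wild type with LPS) and -2.15 (5-LOΔ with LPS), since miR-28-5p lies below 10. It also moved, within the counting intervals, the effect of the knockout with LPS on miR-28-5p from -1.09 to -0.27 and on the arm ratio from -1.17 to -0.34, and without LPS from -0.23 to -0.11 and from -0.33 to -0.20. The 3 scalings to equal sums moved the effect on miR-28-5p the other way, to between -0.55 and -0.37 without and between -1.42 and -1.16 with LPS. As a share of mature miRNAs without miR-3607, both arms made up 0.107%, 0.0889%, 0.0863% and 0.0685%, and of all noncoding RNAs 0.000578%, 0.000533%, 0.000482% and 0.000457%. Without LPS, the 23 miRNAs at least 1.5-fold higher became 39 (minimum mean 1), 15 (minimum mean 50) and 5 (2-fold), and the 4 lower ones 17, 1 and 2. With LPS, the 18 higher ones became 31, 8 and 3, and the 4 lower ones 21 and 1 for the minimum means. With single libraries left out, the effect on miR-28-5p ran from -0.82 to 0.19 without LPS and from -1.64 to -0.50 with LPS, and the arm ratio of 5-LOΔ cells from -3.32 to -2.31 without and from -4.85 to -3.71 with LPS. Leaving libraries out of the 5p mean alone was chosen after the data were seen, as were the other minimums for hairpins and the comparison with miRNAs of similar level. No paired analysis was possible because the columns are means and carry no replicate number. Leaving libraries out of the miR-28-3p mean and the ratio to the miR-151a hairpin were not run. The reads of miR-28-5p, from 7 to 32 per group, set the width of most intervals.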
